A study of Mus musculus with 66 samples.

Results

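Small heat shock proteins are chaperones that hold unfolding proteins in a soluble state, without using ATP, until other chaperones refold them. They share a crystallin domain and assemble into oligomers, often of several different members. Striated muscle is known for expressing a large part of the family, and several members bind desmin filaments, titin or actin at the sarcomere. The 7 genes described here are *Hspb1* (HSP27, called HSP25 in mouse), *Cryab* (alpha B-crystallin), *Hspb8* (HSP22, a partner of the co-chaperone BAG3), *Hspb6* (HSP20), *Hspb2* and *Hspb3*, which form a complex with each other, and *Hspb7* (cvHSP). They were taken by name from the 22489 genes of the mRNA-Seq table, and all 7 were found. With a mean of at least 1 FPKM (fragments scaled to exon length and to the number of mapped fragments) required for the tests, 6 of the 7 were tested among 10954 genes, and *Hspb3* was described without that test.

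mRNA-Seq was performed on C2C12 cells, a mouse myoblast line that fuses into myotubes when serum is withdrawn, in 10 lines. One was the line without a transgene (WT). The other 9 each carried an H3.1, H3t, H3.2, H3.3, H3mm7, H3mm11, H3mm12, H3mm13 or H3mm16 gene with GFP at its N-terminus, driven by a doxycycline-inducible Tet-On promoter, and were selected with doxycycline and G418 and by sorting for GFP. Growing cells were kept in 20% fetal bovine serum, and differentiated cells were harvested 48 h after a change to 2% horse serum. Each line gave 1 library in each state, so a line had no replicate of its own, the 10 lines were the units of comparison, and effects of a tagged histone and of the selection of 1 line cannot be told apart. Whether WT cells received doxycycline was not given in the sources used here. By sequence, the study divides these variants into an H3.1/H3.2 type (H3.1, H3.2 and H3t) and an H3.3 type, to which H3.3 and the 5 H3mm variants belong.

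The number of reads per library is unknown, since FPKM carries no counts. Genes above 0 FPKM numbered 14540 to 16865 in libraries of GFP-H3 lines and 13858 to 14254 in the WT libraries, and FPKM summed over all genes to 583613 to 894105 and to 409319 to 465247. The markers moved with the labelled states. All 8 markers of differentiated muscle were called higher after differentiation and all 5 markers of cycling cells lower, while the adipocyte, osteoblast, endothelial and leukocyte markers summed to at most 5.08, 2.77, 7.66 and 3.98 FPKM in any library. Of the muscle markers, *Ckm* and *Myh3* averaged 0.375 and 0.217 FPKM in growth and reached the filter only through differentiated values. Of the myoblast markers, 2 of 4 tested were called higher (*Des* and *Cdh15*), and *Pax7* averaged 0.190 FPKM in growth. Fewer expressing cells and less RNA per cell cannot be told apart in such bulk libraries.

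In growing cells the family was led by *Hspb1*, followed by *Cryab*, *Hspb8*, *Hspb6* and *Hspb2*, with *Hspb7* and *Hspb3* near 0. The medians over 10 growth libraries were 937 FPKM for *Hspb1*, 194 for *Cryab*, 60.6 for *Hspb8*, 22.9 for *Hspb6*, 12.5 for *Hspb2* and 0.102 for *Hspb7*. FPKM is scaled to length, so these levels can be set side by side. Each gene exceeded the next in this order in 10 of 10 libraries, except that *Hspb1* exceeded *Cryab* in 9 of 10. After differentiation the medians were 676 FPKM for *Hspb1*, 286 for *Cryab*, 69.7 for *Hspb2*, 69.2 for *Hspb8*, 4.77 for *Hspb6*, 3.2 for *Hspb7* and 0.781 for *Hspb3*. *Hspb2* had moved from the fifth to the third place, beside *Hspb8*, which it exceeded in 5 of 10 libraries, and *Hspb6* exceeded *Hspb7* in 6 of 10.

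**Figure D1:**
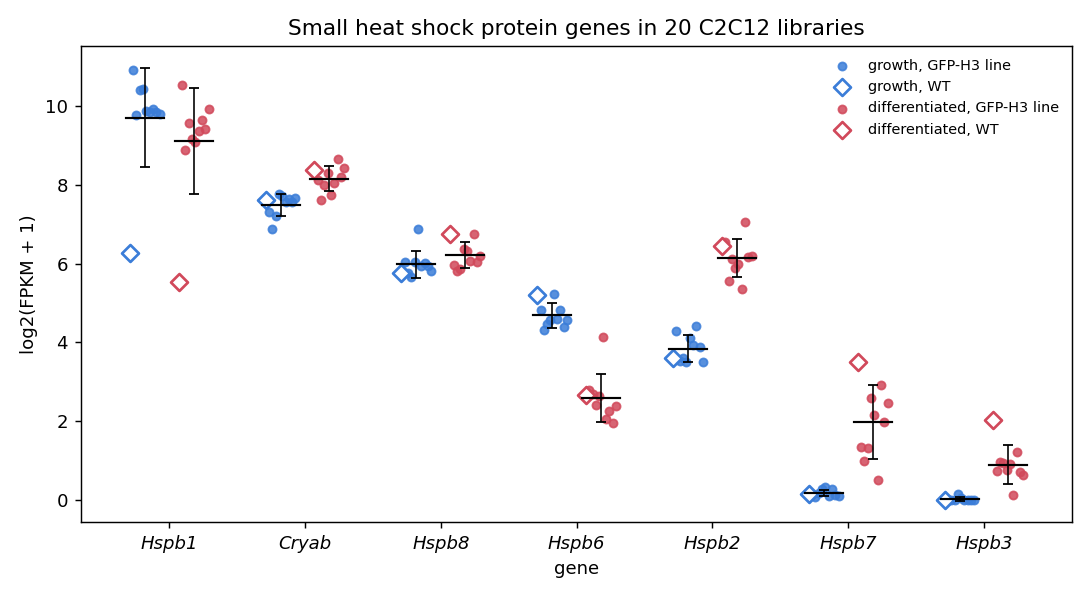
Levels of the 7 genes on the log2(FPKM + 1) scale in 10 growth and 10 differentiated libraries. Circles are GFP-H3 lines, open diamonds are WT, and the black line and bars are the mean and SD over 10 libraries. The groups of *Hspb2*, *Hspb6* and *Hspb7* do not overlap, and WT is far below all lines only for *Hspb1*.

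The promoters of the family are shown because the members moved in different directions. RefSeq windows of the GRCm38.p6 build, from 250 bases before to 50 bases after a gene's start, were found for 5 of the 7 members, with 2 windows for *Hspb6*. *Hspb2* and *Cryab* were not matched. The palindrome GAANNTTC, which holds the head-to-head pair of units bound by heat shock factors, was searched in each window, along with TTCNNGAA, the muscle E-box CAGCTG, the wider E-box CANNTG, the MEF2 motif, the CArG box and TATAAA. Both strands were read. Below are the 250 bases upstream of *Hspb1* (chr5:135887669-135887918, plus strand), the second start of *Hspb6* (chr7:30553051-30553300, plus strand) and *Hspb3* (chr13:113663677-113663926, minus strand), which differed in direction or level and each hold a match. Capitals mark GAANNTTC matches, TATAAA and, in *Hspb3*, the MEF2 motif, which overlaps TATAAA there.
Hspb1: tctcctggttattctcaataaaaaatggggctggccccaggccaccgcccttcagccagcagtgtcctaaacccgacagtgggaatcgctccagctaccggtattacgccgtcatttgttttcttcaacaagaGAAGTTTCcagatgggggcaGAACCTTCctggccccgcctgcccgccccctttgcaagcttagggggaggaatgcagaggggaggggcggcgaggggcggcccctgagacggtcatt
Hspb6: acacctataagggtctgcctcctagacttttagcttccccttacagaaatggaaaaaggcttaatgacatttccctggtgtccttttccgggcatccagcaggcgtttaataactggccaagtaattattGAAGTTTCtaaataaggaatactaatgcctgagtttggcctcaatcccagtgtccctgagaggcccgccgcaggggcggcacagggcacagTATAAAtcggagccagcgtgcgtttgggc
Hspb3: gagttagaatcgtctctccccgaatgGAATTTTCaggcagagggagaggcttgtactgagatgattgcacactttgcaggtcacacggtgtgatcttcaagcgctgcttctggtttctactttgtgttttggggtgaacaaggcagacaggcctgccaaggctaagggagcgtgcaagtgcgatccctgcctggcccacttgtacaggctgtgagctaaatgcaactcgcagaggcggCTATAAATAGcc

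GAANNTTC was found in *Hspb1* at 2 places, beginning 117 and 97 bases before the start (GAAGTTTC and GAACCTTC). It was found once in *Hspb6*, 120 bases before the second start (GAAGTTTC), once in *Hspb3*, 224 bases before the start (GAATTTTC), and once in *Hspb8*, where GAAGTTTC begins at base 3 after the start. *Hspb7* and the first window of *Hspb6* held none. Of 32851 RefSeq promoters of the same length, 7.86% held GAANNTTC. TTCNNGAA, found in 8.52% of all promoters, CAGCTG, found in 16.3%, and the CArG box, found in 1.63%, had no match in the 6 windows. The MEF2 motif, present in 1.86% of all promoters, was matched in *Hspb3* alone among the members with a window. CANNTG was matched in 4 of the 6 windows and in 72.3% of all promoters. These are matches of letters and say nothing of binding.

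*Hspb2* and *Hspb3* encode partners of a complex that is formed during myogenic differentiation, and both were higher in differentiated than in growing cells of 10 of 10 lines. *Hspb2* (chr9:50559177-50560459 in mm9, minus strand, 2 exon blocks) measured 11.2 FPKM in WT, 18.4 in H3.1, 10.5 in H3t, 11.2 in H3.2, 10.4 in H3.3, 16.3 in H3mm7, 14.1 in H3mm11, 20.4 in H3mm12, 13.7 in H3mm13 and 10.3 in H3mm16 in growth. In differentiated cells of the same lines it measured 87.0, 93.0, 46.3, 69.0, 58.6, 62.2, 40.1, 131, 70.4 and 72.7 FPKM. The lowest differentiated library, H3mm11, was above the highest growth library, H3mm12. Of all genes tested, 22.7% were higher in 10 of 10 lines, and 8.85% had no overlap with higher differentiated values. The change was 2.30 ± 0.179 (SE) on the log2(FPKM + 1) scale with an adjusted p of 4.88e-10 (limma, Benjamini-Hochberg over 10954 genes, 10 against 10 libraries). It was 2.24 without WT, and by line it ranged from 1.44 in H3mm11 to 2.85 in WT. A gene was called if it passed both an adjusted p of 0.05 and a log2 change of 1 in size, and 17.3% of all genes tested were called in either direction, 8.87% higher and 8.41% lower.

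*Hspb3* (chr13:114453104-114453884 in mm9, minus strand, 1 exon block) was listed at 0 in 8 of 10 growth libraries and at 0.0960 FPKM in H3.3 and 0.0365 in H3mm7. In differentiated cells it measured 3.1 FPKM in WT, 0.652 in H3.1, 0.931 in H3t, 0.895 in H3.2, 0.699 in H3.3, 0.862 in H3mm7, 0.0777 in H3mm11, 1.30 in H3mm12, 0.619 in H3mm13 and 0.543 in H3mm16. WT was the highest and H3mm11 the lowest, below the H3.3 line in growth. Its mean of 0.490 FPKM is under the filter. Without a filter on low values, the change was 0.87 ± 0.150 (SE) on the log2(FPKM + 1) scale with a limma adjusted p of 7.94e-05 over 19103 genes, of which 39.7% passed the p threshold, and the fold threshold was not met. The pseudocount of 1 makes changes at such levels small.

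*Hspb7*, a heart and muscle member that binds actin filaments and filamin C, rose from traces. In growth it measured between 0.0547 FPKM in H3t and 0.241 in H3mm7, with a median of 0.102. In differentiated cells it measured 10.4 FPKM in WT, 1.55 in H3.1, 0.992 in H3t, 1.49 in H3.2, 4.96 in H3.3, 3.46 in H3mm7, 0.424 in H3mm11, 6.48 in H3mm12, 2.94 in H3mm13 and 4.47 in H3mm16. The states did not overlap, and the differentiated libraries were spread widely, with WT highest and H3mm11 lowest, as for *Hspb3*. *Hspb7* averaged 0.126 FPKM in growth and reached the filter of 1 FPKM only through its differentiated values. The change was 1.81 ± 0.278 (SE), with a limma adjusted p of 1.01e-05, and 1.63 without WT. It was larger with a smaller pseudocount, at 3.67 with 0.1 FPKM and 4.44 with 0.01 FPKM. The gene lies at chr4:140976694-140981226 in mm9, on the plus strand.

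*Hspb6* was the one member called lower. It encodes HSP20, which is known as a target of cyclic nucleotide-dependent kinases in muscle. In growth it measured 35.7 FPKM in WT, 27.5 in H3.1, 18.9 in H3t, 21.0 in H3.2, 22.7 in H3.3, 36.2 in H3mm7, 23.1 in H3mm11, 27.3 in H3mm12, 19.8 in H3mm13 and 22.6 in H3mm16. In differentiated cells it measured between 2.85 FPKM in H3mm13 and 5.87 in H3.1 in 9 libraries, and 16.7 in H3mm7. H3mm7 was thus highest in both states, and even its differentiated library was below all growth libraries. Of all genes tested, 8.74% had differentiated values below all growth values, and 21.3% were lower in 10 of 10 lines, as *Hspb6* was. The change was -2.10 ± 0.205 (SE), with a limma adjusted p of 1.70e-08, and -2.05 without WT. By line it ranged from -1.08 in H3mm7 to -2.56 in H3mm12. The gene (chr7:31337197-31340462 in mm9, plus strand) shares 119 bases with *BC053749* and 3 with *Lin37*, both on the minus strand. Cuffdiff treats libraries as unstranded by default, so reads of these bases cannot be told apart by strand.

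*Cryab* rose in every line, by less than the fold threshold on average, and *Hspb8* did not pass the test. *Cryab*, the chaperone of desmin whose mutation causes a desmin-related myopathy, measured 197 FPKM in WT, 159 in H3.1, 118 in H3t, 147 in H3.2, 217 in H3.3, 211 in H3mm7, 190 in H3mm11, 198 in H3mm12, 190 in H3mm13 and 202 in H3mm16 in growth. In differentiated cells of these lines it measured 335, 281, 197, 256, 318, 212, 264, 406, 292 and 345 FPKM. It was higher in 10 of 10 lines, and the change ranged from 0.0099 in H3mm7 to 1.03 in H3mm12. The ranges of the states overlapped. The mean change of 0.66 ± 0.137 (SE) had a limma adjusted p of 0.000324 and did not meet the fold threshold, and 58.6% of all genes tested passed the p threshold alone.

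*Hspb8* forms a complex with BAG3 that routes clients to autophagy. It measured 53.0 FPKM in WT, 64.8 in H3.1, 53.5 in H3t, 49.8 in H3.2, 65.3 in H3.3, 117 in H3mm7, 60.6 in H3mm11, 64.3 in H3mm12, 60.6 in H3mm13 and 55.3 in H3mm16 in growth. In differentiated cells it ranged from 55.3 FPKM in H3t to 107 in both WT and H3mm12, with a median of 69.2. The H3mm7 growth library stood apart from the other 9 growth libraries, and this line had the lowest change, -0.55, against 1.01 in WT. The mean change of 0.23 ± 0.149 (SE) did not pass the test, with a limma adjusted p of 0.196. It was 0.14 without WT and 0.09 with each library rescaled to the same sum. Without H3mm7 it was 0.32 with a limma adjusted p of 0.0405, still under the fold threshold. *Bag3*, its partner, averaged 43.0 FPKM in growth and 41.5 after differentiation, a change of -0.04 with a limma adjusted p of 0.797.

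**Figure D2:**
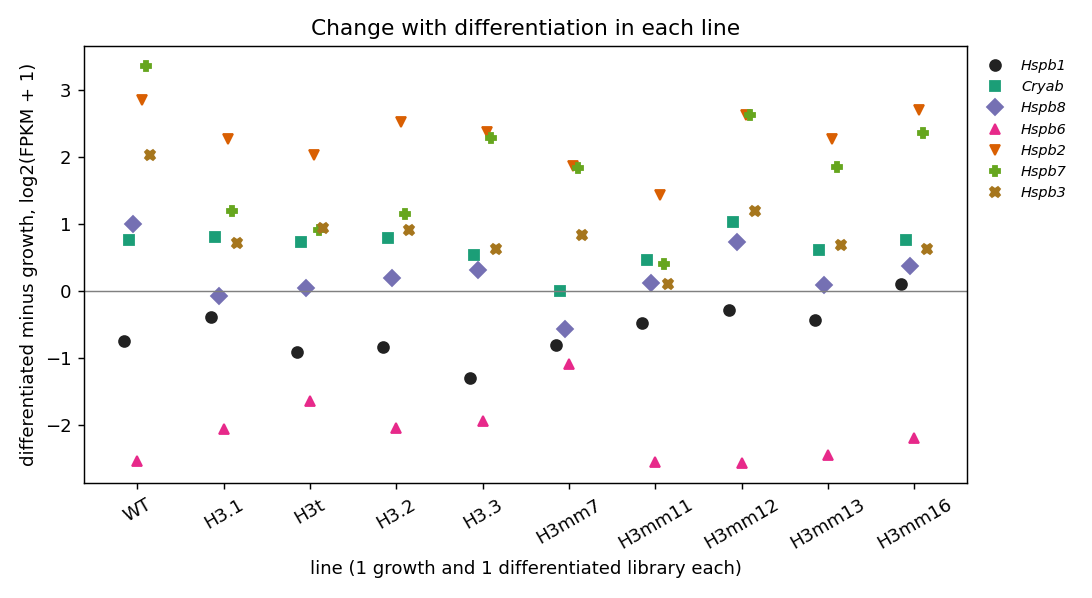
Differentiated minus growth, on the log2(FPKM + 1) scale, for each gene in each of 10 lines, with 1 library per state. *Hspb2* lies above 1.4 and *Hspb6* below -1 in every line, while *Cryab* and *Hspb8* are near or below 0 in H3mm7.

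*Hspb1*, the most abundant member in the GFP-H3 lines, was lower in WT than in all other lines. This low level in WT was not particular to it. Of all 22489 genes, 191 were at least 8-fold below the lowest GFP-H3 line in both states, with that line above 1 FPKM. *Hspb1* was the one member among them. In growth it measured 75.9 FPKM in WT, 1928 in H3.1, 879 in H3t, 1363 in H3.2, 1403 in H3.3, 949 in H3mm7, 920 in H3mm11, 984 in H3mm12, 925 in H3mm13 and 899 in H3mm16. In differentiated cells it measured 45.1 FPKM in WT and 1480, 470, 764, 573, 547, 661, 808, 690 and 972 in the same lines. WT was 11.6-fold below the lowest GFP-H3 line in growth and 10.4-fold below it after differentiation, and H3.1 was highest in both states. Differentiated values were below growth values in 9 of the 10 lines, with a log2 change of -1.29 in H3.3, and the change in H3mm16 was 0.11.

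The adjusted p of *Hspb1* depended on WT and on whether the 2 libraries of a line were paired. WT had a low level in both states, and its own change was -0.74. Over 10 lines the change was -0.60 ± 0.547 (SE) with a limma adjusted p of 0.363. Over the 9 GFP-H3 lines it was -0.59 ± 0.201 (SE) with a limma adjusted p of 0.0162, and 61.7% of all genes passed the p threshold in that fit. With the line as a replicate block it was -0.60 ± 0.119 (SE) with a limma adjusted p of 0.000682. The fold threshold was not met in any of the 3.

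The sequence of *Hspb1* is repeated in the genome. The gene (chr5:136363789-136365433 in mm9, plus strand, 2 exon blocks) holds 971 distinct 31-base exon words, of which 35.0% occur once in mm9 and 65.0% occur again, all at chr13:45173739-45174553, where the pseudogene *Hsp25-ps1* and *Gm9817* are annotated. Of the exon words of the other 6 members, 98.6% to 100% occur once. The authors ran Cuffdiff with default settings, under which a read that fits several places is shared evenly among them, so the level of *Hspb1* is uncertain. Across the 7 tested genes of the family and of other chaperone and partner lists with under 60% of words found once, 6 were lower in WT than in all 9 lines in both states, against 7 of the 76 other genes. This split was made after the values were seen, and the 6 include *Hspb1* itself. Among the 76, the lowest line was up to 6.90-fold above WT in growth. For 143 of the 191 genes above, the share of words found once had a median of 60.1% and ranged from 0% to 100%.

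Of the chaperone and partner lists, *Hspa8*, the constitutive HSP70, was the one gene among the 191, with 56.8% of its words found once and 10.6-fold and 9.0-fold differences. *Ptges3*, with 39.8% of words found once, was only 1.09-fold below the lowest line in growth, and *Hspa1b*, with 31.5%, was above it. No other member stood below all lines in WT. The part that repeated sequence had in the level of *Hspb1* in WT was not tested.

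**Figure D3:**
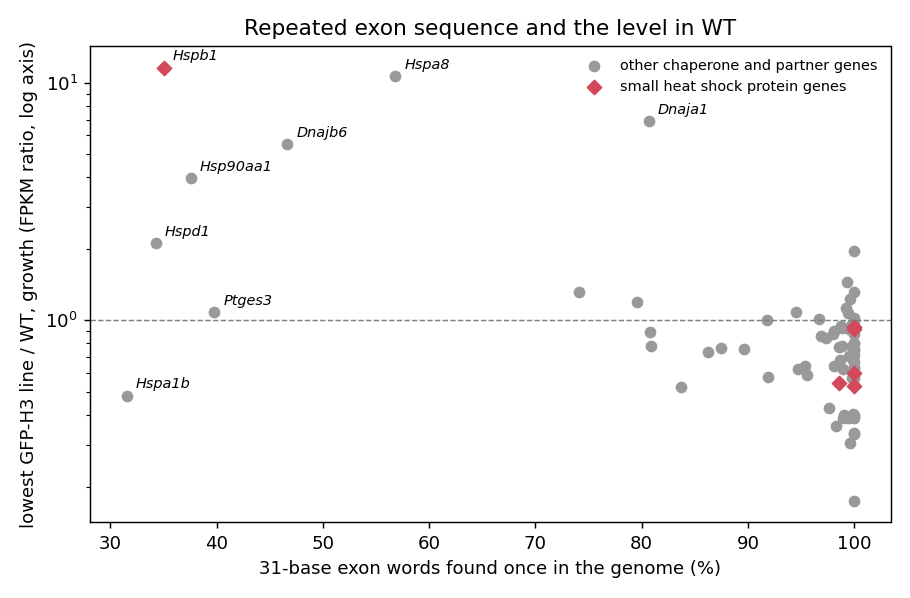
Share of 31-base exon words found once in mm9 (x axis) against the FPKM of the lowest GFP-H3 line divided by that of WT in growth (y axis, log scale), for tested genes of the family (red) and of other chaperone and partner lists (grey). Genes above the dashed line are lowest in WT, 4 genes listed at 0 in WT or in a line are not drawn, and *Hspb1* and *Hspa8* lie above 10.

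*Hspb1* made up most of the family's transcripts in the GFP-H3 lines. In the 9 GFP-H3 lines it gave 79.1% ± 5.32 (SD, n = 9) of the summed FPKM of the 7 genes in growth and 62.7% ± 6.72 after differentiation, lower in 9 of 9 lines. *Cryab* went from 13.3% ± 3.46 to 24.3% ± 4.42, and *Hspb2* from 1.01% ± 0.300 to 5.91% ± 1.44, both higher in 9 of 9. *Hspb6* went from 1.77% ± 0.468 to 0.532% ± 0.499. In WT *Cryab* led, with 52.8% in growth and 56.5% after differentiation, and *Hspb1* gave 20.4% and 7.59%. These shares are descriptions, and the uncertainty of *Hspb1* carries into all of them.

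**Figure D4:**
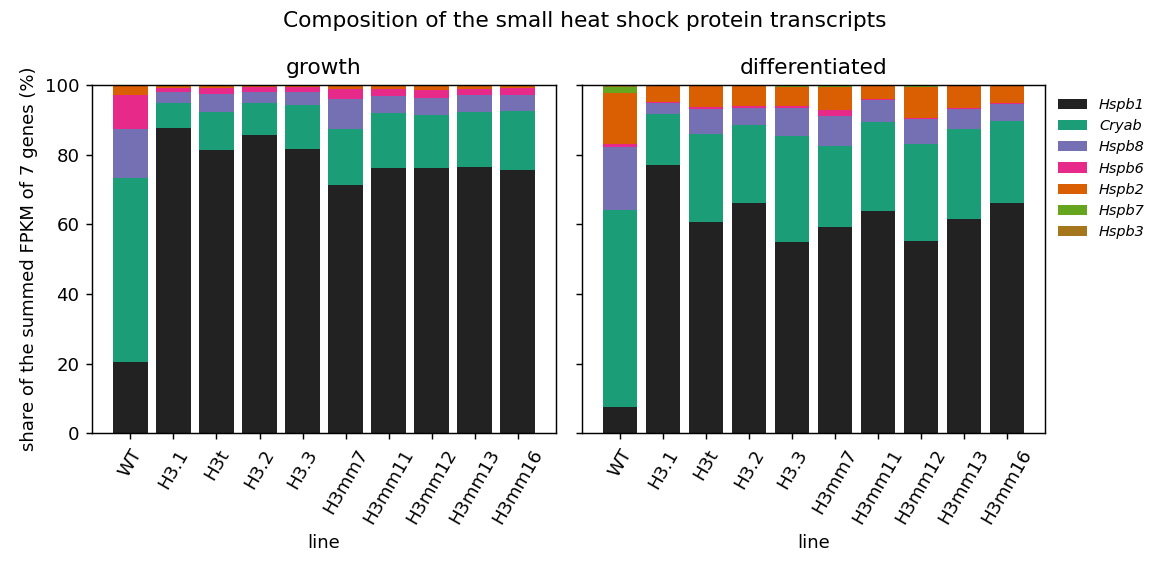
Share of each gene in the summed FPKM of the 7 genes, in percent, for each line in growth (left) and after differentiation (right). *Hspb1* (black) gives 71.4% to 87.7% in growth and 55.0% to 76.9% after differentiation in the GFP-H3 lines, and *Cryab* (green) is the largest share in WT.

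*Hspb2* and *Cryab* are neighbours that point away from each other, 403 bases apart on chromosome 9 (*Cryab* at chr9:50560863-50564738 in mm9, plus strand). *Cryab* was 13.3-fold more abundant than *Hspb2* in the median growth library, with a range of 8.61 to 20.9 over 10 libraries. After differentiation the ratio was 4.00, with a range of 3.02 to 6.58, so the ranges did not overlap. Across the 10 differentiated libraries the log2 levels of the pair had a Pearson r of 0.70 and a Spearman rho of 0.67. Across the 10 growth libraries these were 0.18 and -0.12. The r of 0.70 was not particular to the neighbours. In differentiated cells r was 0.68 for *Hspb8* with *Cryab*, 0.67 for *Hspb7* with *Cryab* and 0.65 for *Hspb2* with *Hspb7*, and lower for all pairs with *Hspb1* or *Hspb6*. *Hspb7* and *Hspb8* in differentiated cells had an r of 0.86, a Spearman rho of 0.87 and, without WT, an r of 0.79. *Hspb6* and *Hspb8* in growth had an r of 0.57 and a Spearman rho of 0.45, and an r of 0.87 without WT. The H3mm7 growth library was the highest for both, at 36.2 and 117 FPKM. These correlations are over 10 libraries that share scaling and, apart from WT, a common mode of selection, and are descriptions.

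The genes whose levels were most like those of a member over the 10 differentiated libraries were named by Pearson r on the log2(FPKM + 1) scale. They were *Nfic* (0.95), *Lmna* (0.94) and *Smarcd3* (0.92) for *Hspb2*, and *Nup85* (0.95), *Dolpp1* (0.95) and *Apln* (0.93) for *Hspb6*. The H3mm7 library lay far above the others for *Hspb6*, at 16.7 FPKM, and r without it was not computed. *Apln* had a Spearman rho of 0.75 and a median of 0.344 FPKM. *Cav3*, the muscle caveolin, *Agpat3* and *Gpt* (all 0.93) were closest to *Hspb7*. *Hs6st1* (0.95), *Ptp4a3* (0.92) and *N4bp3* (0.91) were closest to *Hspb8*, and *App* (0.93), *Kif13a* (0.92) and *AU040320* (0.92) to *Cryab*. Those of *Hspb1*, *Oaz1* (0.97), *Inpp5e* (0.97) and *Gm14872* (0.96), rested in part on WT, and had 0.82, 0.72 and 0.66 without it. All these are the highest r values picked from 10954 genes over 10 libraries. Such a choice alone gives high values, and the r that unrelated genes would reach was not computed.

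Whether the type of the tagged H3 went with the family's levels was asked by comparing 6 H3.3-type with 3 H3.1/H3.2-type lines. No member was called in growth, where 0.21% of 10931 genes were called, in differentiated cells, where 0.768% were, or in the difference of the changes, where 0% were (limma, 0 genes with an adjusted p below 0.05). *Cryab* in growth measured 190 to 217 FPKM in the H3.3-type and 118 to 159 in the H3.1/H3.2-type lines. The difference of 0.52 ± 0.171 (SE) on the log2 scale had a limma adjusted p of 0.278. How many of all genes had ranges as separate between the types was not counted. *Hspb7* in differentiated cells measured 0.992 to 1.55 FPKM in H3.1/H3.2-type lines and 2.94 to 6.48 in H3.3-type lines other than H3mm11, which was at 0.424. The difference was 0.88 ± 0.337 (SE) with a limma adjusted p of 0.152. Without H3mm11 it was 1.19 ± 0.178 (SE) and met the call rule, but this line was singled out by its own low value. Counts of all genes called also moved widely when 1 line was left out, so that fit is no support for a type difference. *Hspb8* in differentiated cells measured 64.6 to 107 FPKM against 55.3 to 62.0, a difference of 0.41 ± 0.200 (SE) with a limma adjusted p of 0.263. The interaction gave limma adjusted p values of 0.648 to 0.984 for the 6 members tested. That fit did not pair the libraries of a line, although they deviate together. With the line as a replicate block no member was called either. Of the genes called in differentiated cells 29.8% were higher in H3.3-type lines, and 9.47% were when each library was rescaled to the same sum.

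The study also grouped the differentiated H3.3, H3mm7 and H3mm11 lines apart from the rest, on these same libraries, so their values are a description. *Hspb6* measured 5.21, 16.7 and 3.12 FPKM in them and 2.85 to 5.87 in the other 7 libraries. *Hspb7* measured 4.96, 3.46 and 0.424 FPKM against 0.992 to 10.4. *Hspb2* measured 58.6, 62.2 and 40.1 FPKM against 46.3 to 131, and *Cryab* 318, 212 and 264 against 197 to 406. *Hspb1* measured 573, 547 and 661 FPKM against a median of 764 in the other 7, and *Hspb8* 81.9, 79.6 and 66.3 against a median of 64.6. H3mm7 was above the other 7 libraries for *Hspb6*, and H3mm11 below them for *Hspb2*, *Hspb3* and *Hspb7*. For *Hspb1* and *Hspb2* all 3 lines were below the median of the other 7, and for *Hspb8* above it, within overlapping ranges.

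**Figure D5:**
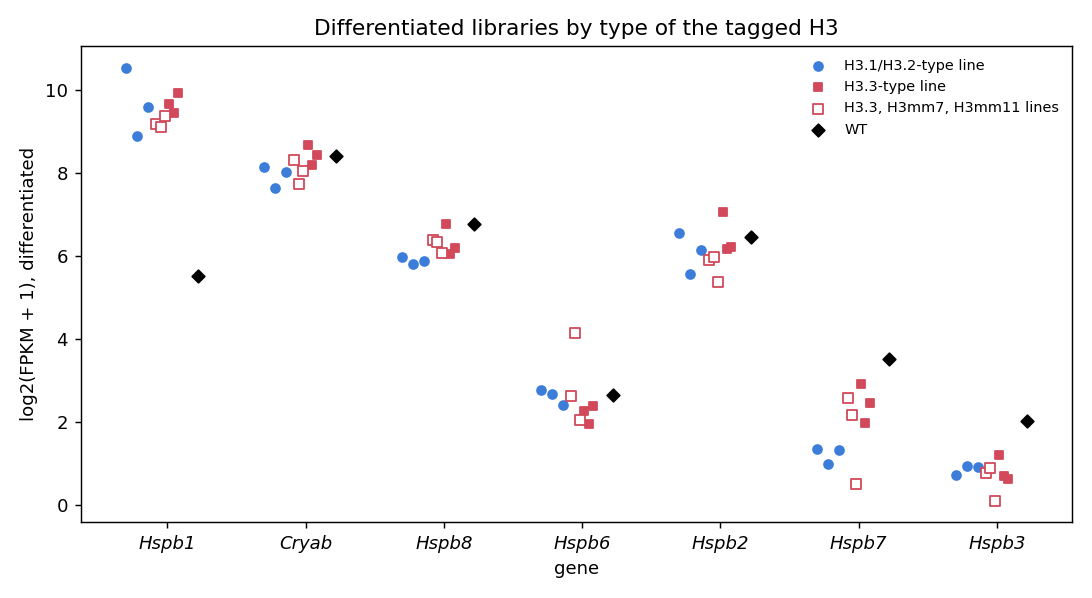
Differentiated levels of the 7 genes on the log2(FPKM + 1) scale in H3.1/H3.2-type lines (blue circles), H3.3-type lines (red squares, open for H3.3, H3mm7 and H3mm11) and WT (black diamonds). H3mm11 is the low open square for *Hspb7* and *Hspb3*, and H3mm7 the high one for *Hspb6*.

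Clients and partners of the family were read as fixed lists. Of 10 listed Z-disc and titin clients, *Myot* and *Myoz1* were under the filter. The 8 tested were all called higher, against 8.87% of all genes tested. *Actn2*, *Myoz2*, *Tcap*, *Csrp3* and *Ttn* averaged 0.0405 to 0.186 FPKM in growth and reached the filter only through differentiated values. Their direction was thus largely set by the filter, so the count for this list is a description. Without WT, *Actn2* fell under the filter and the other 7 were called. The median change was 2.01 against 0.04 over all genes tested. The 8 included *Myoz2* (5.35), *Csrp3* (4.06) and *Ttn* (2.73), the giant sarcomere spring, and *Flnc* (1.42), the filamin bound by HSPB7, was the most abundant. Of 7 intermediate filament and lamin genes, 2 were called higher and 3 lower, against 8.87% and 8.41% of all genes tested. *Des* (1.40), the client of alpha B-crystallin, and *Sync* (1.95) were higher, and *Lmnb1* (-3.02), *Lmna* (-1.20) and *Vim* (-1.16) lower.

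The counts called in the other chaperone lists stand against the 17.3% of all genes tested that were called in either direction. Among 12 genes of HSP90 and its co-chaperones 2 were called higher, the myosin chaperones *Unc45b* (4.22) and *Smyd1* (3.96), and 2 lower, *Fkbp5* (-1.82) and *Hsp90aa1* (-1.02). *Unc45b* and *Smyd1* averaged 0.0834 and 0.722 FPKM in growth and reached the filter only through differentiated values. *Hsp90aa1* was not called without WT. *Hsp90ab1*, the most abundant of this list, averaged 1345 FPKM in growth and 1367 after differentiation. Of 10 HSP70 and HSP110 genes *Hspa14* was called, lower (-1.03), and *Hspa8*, the most abundant, had a change of 0.10 with a limma adjusted p of 0.881. Of 12 J-domain genes *Dnajb5* was called, higher (2.08), and *Dnaja2* was the most abundant, with a change of 0.12 that did not pass. Of 10 chaperonin genes *Hspd1* was called, lower (-1.08), and *Hspe1*, its co-chaperonin, had a change of -0.43 with a limma adjusted p of 0.0868.

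Of 13 BAG family genes and partners of small heat shock proteins, *Bag1* (1.25) and *Dmpk* (1.00), the kinase bound by HSPB2, were called higher. Without WT *Dmpk* had a change of 0.89 and was not called. *Sqstm1*, the autophagy receptor, was the most abundant of this list, with a change of 0.38 and a limma adjusted p of 0.190. None of 4 tested genes of heat shock factors and their binding protein was called. *Hsbp1*, that binding protein and the most abundant, had a change of 0.64 with a limma adjusted p of 4.57e-06. Of the further genes listed as small heat shock proteins, *Hspb11* alone reached the filter. It had a change of 0.77, a limma adjusted p of 1.47e-04 and a higher level in 10 of 10 lines. *Hspb9* averaged 0.577 FPKM in growth, and *Cryaa* and *Odf1* were at or below 1 FPKM in every library.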

How the data were processed

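mRNA-Seq of 20 C2C12 libraries was analysed. Per the submitters' processing notes, TopHat2 2.0.8, Cuffdiff of Cufflinks 2.0.1 and mm9 were used for all 20, and the paper's text names this mapping for the GFP-H3 lines. The deposited values are FPKM as estimated by the authors, with no counts. The column spelled H3mmT was taken as the H3t line, the one label ending in t. 3′-seq tables, which list histone genes, and ChIP-seq were not analysed here.

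Genes were tested on log2(FPKM + 1) with limma 3.58.1 (trend and robust settings, R 4.3.3) after a filter on the mean (1 FPKM or more), with p-values adjusted by the Benjamini-Hochberg method over all genes. Calls needed an adjusted p under 0.05 and a log2 change of 1 or more in size. Fold changes on this scale are understated for low genes. Growth was compared with differentiated cells over 10 lines, and 6 H3.3-type with 3 H3.1/H3.2-type lines in 1 fit of 18 libraries. Libraries of 1 line deviated together (r of 0.273 to 0.877 over 10 lines, each best with its own line), so the line pairs them, and the fit with the line as a replicate block is given where it matters. P-values measure the spread between lines. The test was tried on simulated data with planted changes and independent noise in each library. Those data held no line effect, so the trial does not cover the pairing of libraries.

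Named genes were the 7 members, the 3 largest called changes and the most abundant gene of each list, markers, neighbours, and the 3 genes most like each member. *Bag3*, *Hsp90aa1*, *Lmna*, *Actn2*, *Ptges3*, *Hspa1b* and the further genes listed as small heat shock proteins were also named, after their values were seen. Members and lists were chosen with earlier results of these data known. Alternatives covered the pseudocount, filter, scaling, limma settings, block and each line left out. Exon words and loci were read from mm9 and its GENCODE annotation, promoters from RefSeq (GRCm38.p6). Python 3.11.15, numpy 2.4.6, pandas 2.3.3 and matplotlib 3.10.9 were used.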

Additional observations from a re-analysis of the deposited data

Results flagged for a closer look

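Of 14 groups of 10 libraries (7 genes in 2 states), 5 had a highest or lowest library that lay far from the others by Dixon's criterion, with a gap above 0.466 of the group's range. Chance alone gives about 1 such group in 20. *Hspb1* was low in WT in growth (75.9 FPKM) and after differentiation (45.1 FPKM). *Hspb8* was high in the H3mm7 line in growth (117 FPKM), and *Hspb6* was high in the same line after differentiation (16.7 FPKM). *Hspb3* was highest in the H3.3 line in growth, at 0.0960 FPKM, where 8 of the other libraries were listed at 0.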

How the results depend on the processing

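For differentiation, the 6 tested members kept their direction and their side of the call under each other setting that gave a value and with each line, WT included, left out in turn (*Hspb7* gave none with a filter of 5 FPKM), and the counts of genes called stayed within 1.5 times. The line as a replicate block changed no call of a member, and *Hspb1* and *Cryab* then had adjusted p values of 0.000682 and 3.22e-05. Rescaling to the same sum moved the median of all genes from 0.04 to -0.08 for differentiation and from 0.00 to -0.26 between H3 types in differentiated cells, and changes under it are relative to that shift. The cause of the following moves was not tested.

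Counts between H3 types were unstable. In growth 18 genes were called higher, and 50, 71, 8 and 54 with a pseudocount of 0.1, one of 0.01, no filter and growth alone. The 5 called lower became 1, 1 and 0 with these pseudocounts and a filter of 5 FPKM. In differentiated cells 25 were called higher, and 14, 11 and 0 with no filter, a filter of 5 FPKM and differentiated libraries alone. The 59 called lower became 99, 25, 36, 325 and 1 with a pseudocount of 0.1, no filter, a filter of 5 FPKM, rescaling to the same sum and differentiated libraries alone. For the difference of the changes, 0 genes in each direction became 1 higher with no filter and with quantile normalization, and lower 1, 1, 4, 1 and 3 with no filter, a filter of 5 FPKM, quantile normalization, rescaling and the line as a replicate block. Leaving out 1 line gave 0 to 20 genes higher and 2 to 5 lower in growth, 1 to 106 higher and 2 to 187 lower in differentiated cells, and 0 to 1 in each direction for the difference of the changes.

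Small differences between H3 types turned direction without a call. With quantile normalization *Hspb7* in growth was at -0.15, *Hspb2* in differentiated cells at -0.052 and the interaction of *Hspb1* at -0.23. With rescaling, *Hspb2* in differentiated cells was at -0.26 and the interactions of *Hspb1* and *Hspb8* at -0.087 and -0.144. Leaving out 1 line gave -0.055 to 0.324 for *Hspb2* in growth, -0.61 to 0.21, -0.23 to 0.26 and -0.374 to 0.065 for *Hspb1*, *Hspb2* and *Hspb6* in differentiated cells, 0.71 to 1.19 for *Hspb7* there, and -0.18 to 0.10 for the interaction of *Hspb2*. Without read counts, the precision of low values such as those of *Hspb3* and *Hspb7* in growth is unknown.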

Other observations

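The levels of the genes annotated next to members were read in the same 20 libraries. *Ywhag*, beside *Hspb1*, measured 116 to 201 FPKM in growth and 112 to 168 after differentiation, and *Srrm3*, on its other side, at most 0.0173 FPKM. *Arl15*, beside *Hspb3*, measured 5.12 to 9.63 FPKM in growth and 14.9 to 30.7 after differentiation. These ranges did not overlap, as was so for 8.85% of all genes tested with higher differentiated values. *Snx18*, on the other side of *Hspb3*, measured 20.8 to 32.8 and 15.6 to 44.8. *1110032A03Rik*, downstream of *Cryab*, measured 0.955 to 1.76 FPKM in growth and 2.32 to 3.57 after differentiation, and *2310030G06Rik*, beside *Hspb2*, 2.01 to 3.32 and 1.62 to 3.39.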
